A study of Homo sapiens with 12 samples.

Results

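The 41 genes described here are the genes of S phase and DNA replication named in a list of functions: factors that license and fire replication origins, subunits of the replicative helicase, primase, the replicative DNA polymerases, the sliding clamp and its loader, enzymes that make deoxynucleotides, and the E2F and cyclin E genes that drive entry into S phase. They were chosen by symbol, though with earlier results of these data known. All 41 stand among the 20323 gene identifiers of the deposited count table. POLA2 and PRIM1, the 2 with more than 1 identifier, were taken at the identifier with the higher total. All 41 passed the filter on low counts, as did 12718 genes in all. RNA was sequenced in 4 groups of 3 libraries from cells labelled A549, which is a long-used human line from a lung adenocarcinoma. The groups were LKB1-intact cells (genotype label WT) and LKB1-deficient cells (titled con), each treated beforehand with phosphate-buffered saline (PBS) or with high-dose AA, which the titles call VitC (ascorbate). No dose or exposure time is given, nor how either kind of cell was made or whether it is 1 clone. The parental A549 line is itself widely described as lacking functional LKB1, a kinase encoded by STK11, so the intact cells cannot be placed against it from the labels. Nothing says that the 3 libraries of a group came from separate cultures, so p-values here reflect library-to-library spread, possibly only technical.

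Eukaryotic DNA is copied once per cell cycle through steps that are kept apart in time. In G1 the origin recognition complex (ORC) with CDC6 and CDT1 loads the ring of MCM2 to MCM7 onto DNA, which is called licensing, and geminin (GMNN) later blocks CDT1 so that origins are not licensed again. In S phase CDC45 and the GINS complex join the MCM ring to form the active helicase, DNA polymerase alpha with primase starts each strand, and polymerases delta and epsilon extend it on the PCNA clamp. Many of these genes are transcribed at the G1/S boundary by E2F factors, which the retinoblastoma protein restrains until cyclin-dependent kinases release them, and high transcript levels of the group are widely used as a mark of cycling cells.

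The libraries held 16055534 to 20306129 estimated counts. Levels are given as CPM, counts scaled to a common library size with TMM factors. A gene was called, and is said to have risen or fallen, at a Benjamini-Hochberg adjusted p under 0.05 in edgeR's quasi-likelihood test over all 12718 genes. STK11 stood at 24.5 ± 0.917 and 26.1 ± 2.0 CPM (SD, n = 3) in intact cells under PBS and AA, and at 5.79 ± 0.862 and 6.64 ± 0.910 CPM in deficient cells. Its levels thus go with the genotype labels. The markers fixed for A549 cells did not all go with the line's label. KRT8 and KRT18 had group means of 742 to 1947 CPM, but KRT19 and ALDH1A1 did not reach 0.30 CPM in the mean of any group, AKR1B10 did not exceed 2.06 CPM, and CDH1 did not exceed 1.62 CPM. Of the rest of the list, AKR1C1, EPCAM and ALDH3A1 were expressed, with means of 317.6, 156.8 and 112.1 counts per library. AKR1C2 had a mean of 12.65 counts. CDKN2A, chosen for this check after its values were seen and widely described as deleted in A549, stood at group means of 66.7 to 110.1 CPM. The cells are therefore called by their labels only. Some marker lists moved with the groups. The summed level of the 10 A549 markers, mostly KRT8 and KRT18, was 2196 to 2285 CPM in intact PBS, 3358 to 3497 CPM in intact AA, 1959 to 2130 CPM in deficient PBS and 1785 to 1820 CPM in deficient AA libraries. The 7 alveolar type II markers, nearly all of it ABCA3, summed to 132.2 to 144.5 and 126.2 to 130.3 CPM in intact cells under PBS and AA. In deficient cells they summed to 137.9 to 140.8 and 120.3 to 128.5 CPM. Their surfactant genes and NKX2-1 were near 0. The 5 endothelial markers, nearly all of it CDH5, with KDR at 0, summed to 9.19 to 10.7 and 3.21 to 4.5 CPM in intact cells under PBS and AA, and to 6.56 to 9.22 and 0.815 to 1.78 CPM in deficient cells. The 6 leukocyte markers, with CD3E at 0 in the mean of every group, summed to 0.126 to 0.674 and 2.06 to 2.72 CPM in intact cells, and to 0.306 to 0.425 and 1.26 to 2.30 CPM in deficient cells. The 6 fibroblast markers summed to 10.7 to 14.8 CPM over all libraries, nearly all of it COL1A1, with COL1A2 at 0. The part of these markers' changes in the results was not tested.

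Promoters were taken from RefSeq (GRCh38.p14), which holds an entry for 37 of the 41 genes, each from 250 bases before to 50 after a transcription start. Both strands were searched for 4 words that E2F factors are known to bind, TTTCCCGC, TTTGGCGC, TTTGCCGC and TTTCGCGC, and for CCAAT, the word of the factor NF-Y. The words may overlap one another. An E2F word was found for 21 of the 37 genes (56.8%), against 3.99% of all 27305 genes and 5.40% of 15842 protein-coding genes with an entry. CCAAT was found for 21 of the 37 (56.8%), against 39.7% of all genes. TTTGAA, a word of the element that represses late cell cycle genes in G1, was found for 1 of the 37 (2.70%), against 18.2% of all genes. Sorted by the response described further on, an E2F word was found for 4 of the 13 genes that rose under AA in both genotypes, for 5 of the 9 with an entry that fell in both, and for 6 of the 7 with an entry that fell in deficient and rose in intact cells. These are counts of letters in a window, given as a description. Which genes make up the last group depended on the processing, as described further on, and on FPKM it held only MCM5 and MCM7. The stretches below run from 100 bases before to 10 after the start, 5′ to 3′ on the strand of the gene, with E2F words and CCAAT in capitals. The first 4 belong to genes that fell in deficient and rose in intact cells, and the next 2 to genes that fell in both. The last 3 belong to genes with no E2F word. Among such genes PRIM1 and RFC4 rose most in deficient cells, and ORC1 differed most between the genotypes.
MCM3 (chr6:52284733-52284842, minus strand): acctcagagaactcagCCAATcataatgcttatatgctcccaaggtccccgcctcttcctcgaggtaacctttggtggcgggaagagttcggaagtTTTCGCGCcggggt
MCM6 (chr2:135876434-135876543, minus strand): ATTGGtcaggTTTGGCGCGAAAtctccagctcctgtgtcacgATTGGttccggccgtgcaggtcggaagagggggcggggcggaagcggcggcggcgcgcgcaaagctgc
MCM7 (chr7:100101388-100101497, minus strand): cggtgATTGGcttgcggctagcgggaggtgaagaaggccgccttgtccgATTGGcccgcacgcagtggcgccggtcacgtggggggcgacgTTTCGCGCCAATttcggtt
PCNA (chr20:5126613-5126722, minus strand): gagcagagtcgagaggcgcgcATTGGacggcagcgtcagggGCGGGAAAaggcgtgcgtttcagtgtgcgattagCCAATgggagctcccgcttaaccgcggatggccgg
POLE (chr12:132687333-132687442, minus strand): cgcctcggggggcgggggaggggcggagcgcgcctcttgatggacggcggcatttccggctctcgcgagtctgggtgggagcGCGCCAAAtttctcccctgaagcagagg
CLSPN (chr1:35769969-35770078, minus strand): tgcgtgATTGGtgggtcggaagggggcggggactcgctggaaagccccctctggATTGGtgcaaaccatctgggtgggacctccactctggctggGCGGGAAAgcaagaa
PRIM1 (chr12:56752314-56752423, minus strand): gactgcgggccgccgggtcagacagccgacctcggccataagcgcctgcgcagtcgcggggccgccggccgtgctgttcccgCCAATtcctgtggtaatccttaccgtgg
RFC4 (chr3:186806473-186806582, minus strand): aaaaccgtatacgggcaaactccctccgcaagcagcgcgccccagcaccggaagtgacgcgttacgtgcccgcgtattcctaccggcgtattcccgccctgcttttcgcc
ORC1 (chr1:52404414-52404523, minus strand): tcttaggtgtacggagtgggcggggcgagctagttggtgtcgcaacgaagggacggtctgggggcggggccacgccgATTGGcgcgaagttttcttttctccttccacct

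Within these stretches MCM6 holds 2 overlapping E2F words far upstream of its start, whereas those of MCM3, MCM7, POLE and CLSPN lie close to it. In MCM7 the E2F word runs into a CCAAT. PRIM1 and ORC1 hold a CCAAT and no E2F word, and RFC4 holds neither.

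Under AA the replication genes did not move as a block in either genotype. In LKB1-deficient cells 13 of the 41 rose, 23 fell and 5 did not pass the test, with a median log2 change of -0.10, where 74.4% of all genes tested were called (37% up and 37.4% down) and their median was 0.01. In LKB1-intact cells 22 rose, 12 fell and 7 did not pass, with a median of 0.11, where 69.8% of all genes were called (34.5% up and 35.2% down) and their median was 0.01. The libraries of the PBS and AA groups did not overlap for 38 of the 41 genes in deficient cells (75.5% of all genes) and for 34 in intact cells (72.8%). Most changes were small. Only PRIM1, POLE and CCNE1 changed by 1 or more on the log2 scale in deficient cells, and none did in intact cells. Set side by side, 13 genes rose in both genotypes, as did 24.6% of all genes tested, and 11 fell in both, as did 27%. Another 8 fell in deficient and rose in intact cells (19.5% of the 41), a pattern seen in 3.19% of all genes, and none went the other way (2.71% of all genes). Those 8 were MCM2, MCM3, MCM5, MCM6, MCM7, POLD1, PCNA and LIG1. The number depended on the processing. It was 2 on FPKM (MCM5 and MCM7), 4 at an adjusted p of 0.01, 5 or 6 under each other alternative and 5 to 8 with 1 library left out, the 5 without deficient PBS replicate 1, where MCM6, POLD1 and PCNA were not called. With library size scaling CDC6 went the other way. In libraries made from many cells, fewer cells in S phase and less RNA per cell cannot be told apart. Transcript length moved with these changes: over the 12718 genes Spearman's rho of log2 change with length was -0.41 in deficient and -0.39 in intact cells, and over the 41 genes -0.41 and -0.33, so that long transcripts such as POLE and CLSPN tended to fall and short ones to rise. The part of length in each result was not tested further than by a fit with the length trend removed. That fit ended 6 of the 36 calls in deficient cells and 3 of the 34 in intact cells, and another 11 and 15 calls passed at values more than 1.5 times larger or smaller or, for MCM6 in deficient cells, of the opposite sign.

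**Figure D1:**
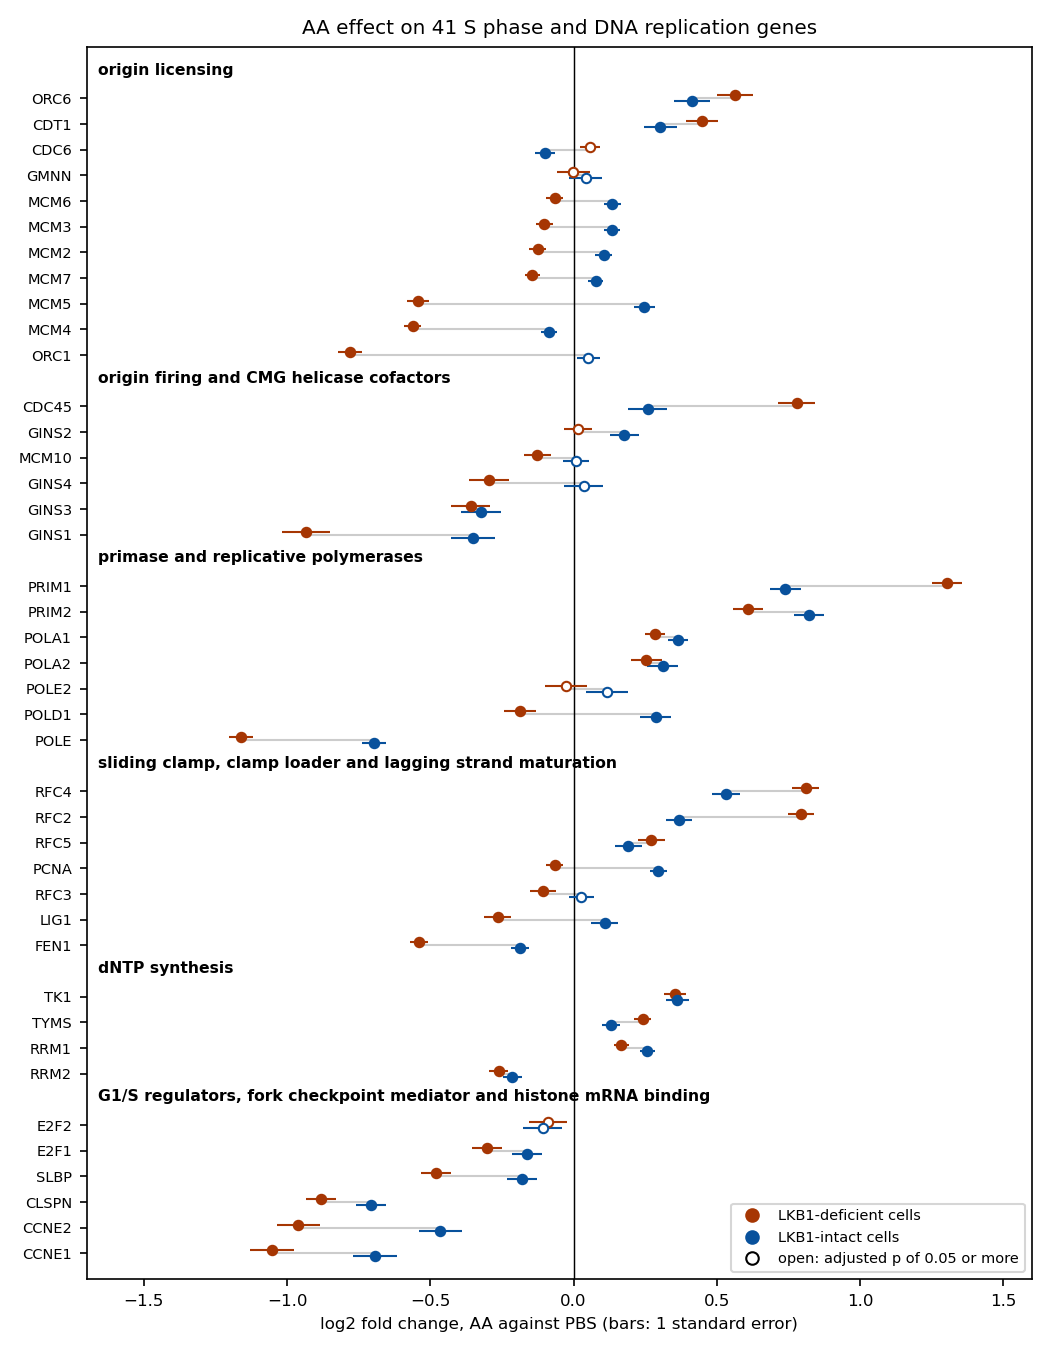
Log2 fold change of AA against PBS (horizontal axis, points, with bars of 1 standard error) for the 41 genes, grouped by role (rows), in LKB1-deficient cells (brown) and LKB1-intact cells (blue), filled where the adjusted p was under 0.05. PRIM1 at 1.3 is the highest and POLE at -1.16 the lowest of the deficient values, and MCM5 and ORC1 have the widest gaps between the genotypes, at -0.79 and -0.83.

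Among the 5 licensing factors outside the MCM ring, ORC6 and CDT1 rose in both genotypes, and ORC1 fell in deficient cells and did not pass in intact cells. ORC1, the largest subunit of the complex that marks origins, stood at 99.7, 99.2 and 97.9 CPM in the 3 deficient PBS libraries and at 56.0, 60.9 and 56.0 CPM in the 3 deficient AA libraries. In intact cells it stood at 98.2, 97.1 and 99.2 CPM under PBS and 97.1, 104 and 104 CPM under AA. All 3 deficient AA libraries lay far below the other 9, which overlapped one another. The log2 change was -0.78 in deficient cells (SE 0.0433, edgeR adjusted p = 4.63e-13) and 0.05 in intact cells (SE 0.0409, adjusted p = 0.272), and the difference between these effects was -0.83 (SE 0.0595, adjusted p = 2.79e-10). It was the largest difference among the 41 genes. In intact cells ORC1 passed the test under upper quartile scaling (0.11) and with the length trend removed (0.15).

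ORC6, the smallest subunit of the same complex, moved the other way from ORC1 in deficient cells. Its libraries read 37.3, 41.8 and 34.6 CPM under PBS and 56.0, 57.3 and 54.7 CPM under AA in deficient cells. In intact cells they read 36.2, 36.6 and 34.9 CPM and 48.3, 44.5 and 50.5 CPM. The AA libraries lay above the PBS libraries in both genotypes. ORC6 rose by 0.56 on the log2 scale in deficient cells (SE 0.0626, adjusted p = 4.44e-08) and by 0.41 in intact cells (SE 0.0637, adjusted p = 6.48e-06), and by 0.34 and 0.27 with the length trend removed. CDT1, the MCM loading factor that geminin inhibits, rose by 0.45 and 0.30. The difference did not pass the test for ORC6 (0.15, 95% interval -0.04 to 0.33) or for CDT1 (0.14, -0.02 to 0.31), though that of CDT1 passed with library size scaling (0.20) and on FPKM (0.23 and 0.24).

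CDC6, the ATPase that helps ORC load the MCM ring, moved little. It stood at 172, 174 and 175 CPM under PBS and 177, 178 and 188 CPM under AA in deficient cells, and at 166, 162 and 174 CPM and 157, 158 and 155 CPM in intact cells. It fell by 0.10 on the log2 scale in intact cells (SE 0.0345, adjusted p = 0.0149), a call lost without intact PBS replicate 3 (-0.07), with upper quartile scaling (-0.04) and with the length trend removed (-0.08). It did not pass in deficient cells (0.06, adjusted p = 0.132), but did with upper quartile (0.10) or library size scaling (0.12) and with the length trend removed (0.07). The 2 effects differed by 0.16 (SE 0.0486, adjusted p = 0.0118). GMNN, the inhibitor of CDT1, had log2 changes of -0.000870 (95% interval -0.12 to 0.12) and 0.04 (-0.08 to 0.16). With the length trend removed these were -0.38 and -0.24 and both passed.

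The 6 genes of the MCM ring, the core of the replicative helicase, had lower AA effects in deficient than in intact cells. All 6 fell in deficient cells, by 0.07 to 0.56 on the log2 scale, though the fall of MCM6 held under none of 11 alternatives, MCM2 and MCM6 turned positive with the length trend removed and MCM3 on FPKM, and in intact cells 5 rose, by 0.08 to 0.25, and MCM4 fell by 0.09. The difference between the effects passed the test for all 6, at -0.20 to -0.79 (edgeR adjusted p from 1.06e-10 for MCM5 to 0.000426 for MCM6). It did so under each of the 11 alternatives that give this difference and with each of the 12 libraries left out in turn, with medians of the 6 from -0.26 to -0.18.

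MCM5 and MCM4 carried the largest of these values. MCM5 stood at 153, 152 and 155 CPM under PBS and 182, 181 and 183 CPM under AA in intact cells. In deficient cells it stood at 159, 157 and 152 CPM under PBS and 100.3, 109.5 and 112 CPM under AA. The AA libraries lay above the PBS libraries in intact cells and below them in deficient cells. MCM5 rose by 0.25 (SE 0.0368, adjusted p = 4.21e-06) in the first and fell by 0.54 (SE 0.0383, adjusted p = 2.80e-11) in the second. MCM4 stood at 349, 359.7 and 358 CPM under PBS and 337, 332 and 335 CPM under AA in intact cells, and at 365, 384 and 372 CPM and 258, 248 and 253 CPM in deficient cells. Its AA libraries were the lower ones in both genotypes. The fall was 0.56 in deficient cells (SE 0.0292, adjusted p = 1.52e-13) and 0.09 in intact cells (SE 0.0288, adjusted p = 0.0110). The small intact fall did not pass under upper quartile scaling (-0.02) or on FPKM with a pseudocount of 0.1 (-0.21).

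The other 4 subunits, shown by library because the ring was seen to move together, changed by less than 0.15 in either direction. MCM2 stood at 518, 516 and 524 CPM under PBS and 559, 561 and 555 CPM under AA in intact cells, and at 498, 516 and 471 CPM and 457, 441 and 462 CPM in deficient cells. MCM7 stood at 568, 559 and 572 CPM and 611, 586 and 596 CPM in intact cells, and at 576, 580.3 and 570.4 CPM and 525, 513 and 524 CPM in deficient cells. In each pair the libraries of PBS and AA did not overlap, and the order reversed between the genotypes. MCM3 went from 389 ± 10.5 to 427 ± 3.93 CPM in intact cells and from 389 ± 5.13 to 362 ± 9.23 CPM in deficient cells (SD, n = 3 each). MCM6 went from 210.3 ± 1.57 to 231 ± 4.79 CPM and from 216 ± 2.52 to 207 ± 0.967 CPM. The falls in deficient cells were -0.13 for MCM2, -0.10 for MCM3, -0.07 for MCM6 and -0.14 for MCM7 (SE 0.0256 to 0.0305), and of these only that of MCM7 passed under every alternative. The length trend removed turned MCM2 to 0.03, which did not pass, and MCM6 to 0.13, which did. On FPKM, MCM2 (-0.06) and MCM3 (0.06) did not pass, nor did MCM3 with upper quartile scaling (-0.06), library size scaling (-0.05) or the length trend removed (-0.05). The call of MCM6 (adjusted p = 0.0493) was lost without any one of 5 of the 6 deficient libraries (-0.07 to -0.06), and in 10 of the 11 alternatives it did not pass (-0.07 to -0.01), the other being the reversed one. In intact cells the length trend removed gave 0.22 for MCM2, 0.29 for MCM6 and -0.18 for MCM4. In intact cells MCM7 (adjusted p = 0.0106) was not called without PBS replicate 2 (0.07) or AA replicate 1 (0.06). MCM2 and MCM7 each share exon sequence with genes on the opposite strand, TPRA1 and AP4M1 among them, and whether the counting used strand is not given in the sources used here, so reads of such neighbours cannot be told apart.

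**Figure D2:**
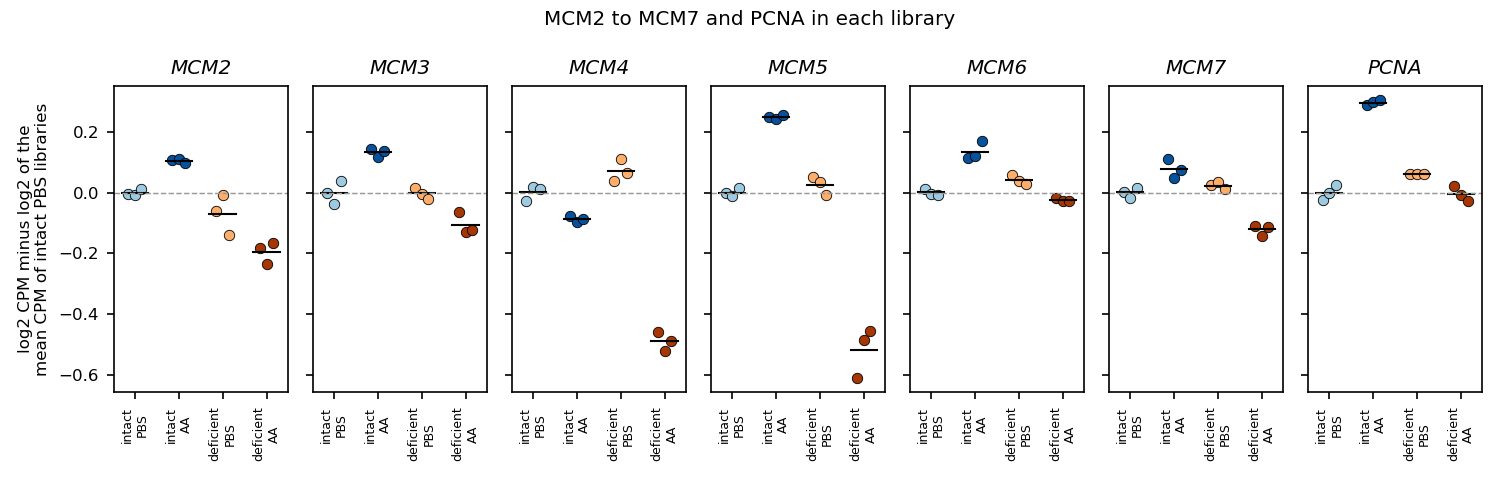
Level of MCM2 to MCM7 and PCNA in each library (points, with the group mean as a line) as log2 CPM minus log2 of the mean CPM of the intact PBS libraries (vertical axis), by group (horizontal axis). The deficient AA libraries of MCM4 and MCM5 sit lowest, and the intact AA libraries sit above the intact PBS libraries for each gene shown except MCM4.

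The factors that turn the loaded ring into an active helicase went different ways, with 1 of 6 up and 4 down in deficient cells and 2 up and 2 down in intact cells. Of all genes tested, 37% rose and 37.4% fell in deficient cells, and 34.5% rose and 35.2% fell in intact cells. CDC45, the helicase cofactor that binds the ring at firing, rose. It stood at 36.2, 33.2 and 39.6 CPM under PBS and 62.8, 62.7 and 61.3 CPM under AA in deficient cells, and at 29.8, 36.3 and 33.2 CPM and 39.7, 39.0 and 40.5 CPM in intact cells. The deficient AA libraries lay above all others, and the intact AA libraries just above those under PBS. The rise was 1.72-fold in deficient cells (log2 0.78, SE 0.0645, adjusted p = 3.87e-10) and 1.20-fold in intact cells (log2 0.26, SE 0.0678, adjusted p = 0.00192), or by 0.16 on the log2 scale with the length trend removed, and the 2 differed by 0.52 (SE 0.0938, adjusted p = 0.000105).

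GINS, the other cofactor, is a complex of 4 subunits in equal number, and its transcripts did not move together. GINS1 stood at 30.6, 34.4 and 37.9 CPM under PBS and 19.0, 16.9 and 18.0 CPM under AA in deficient cells, and at 38.3, 32.5 and 37.7 CPM and 27.2, 28.3 and 29.4 CPM in intact cells. Its AA libraries lay below its PBS libraries in both genotypes. GINS1 fell by 0.93 on the log2 scale in deficient cells (SE 0.0828, adjusted p = 1.20e-09) and by 0.35 in intact cells (SE 0.0777, adjusted p = 0.000408). The difference was -0.58 (SE 0.114, adjusted p = 0.000250). GINS3 stood at 31.4, 31.9 and 33.4 CPM and 24.6, 24.5 and 26.3 CPM in deficient cells, and at 31.1, 28.0 and 32.4 CPM and 25.1, 25.3 and 22.7 CPM in intact cells. It fell in both, by 0.36 and 0.32 (SE 0.0684 and 0.0690), and the difference had a 95% interval of -0.24 to 0.17. GINS4 fell in deficient cells (-0.29) and did not pass in intact cells (0.04), while GINS2 rose in intact cells (0.18) and did not pass in deficient cells (0.02). The difference passed for GINS4 (-0.33, adjusted p = 0.00845), though not on FPKM (-0.12), and not for GINS2 (-0.16, adjusted p = 0.0643), which passed with upper quartile scaling (-0.18). MCM10, which helps start helicase movement, fell in deficient cells (-0.13) and stood at 0.01 in intact cells. The call of MCM10 was lost without deficient PBS replicate 1 (-0.12) or 2 (-0.11) or AA replicate 3 (-0.11), with upper quartile (-0.09) or library size scaling (-0.07) and in DESeq2 (-0.125). MCM10 stood at 0.07 in deficient cells with the length trend removed, and passed in intact cells at 0.16.

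Primase and polymerase alpha, which lay the primers, rose in both genotypes, while the catalytic subunit of polymerase epsilon, which copies the leading strand, fell in both. PRIM1, the catalytic primase subunit, stood at 39.3, 42.6 and 40.4 CPM under PBS and 105, 98.1 and 98.2 CPM under AA in deficient cells. In intact cells it stood at 41.2, 37.5 and 38.5 CPM and 62.2, 68.4 and 64.9 CPM. The deficient AA libraries lay highest, the intact AA libraries next and the PBS libraries of both genotypes together below them. The rise was 2.47-fold in deficient cells (log2 1.3, SE 0.0517, adjusted p = 1.66e-15), the largest among the 41 genes, and 1.67-fold in intact cells (log2 0.74, SE 0.0536, adjusted p = 7.83e-11). The effects differed by 0.56 (SE 0.0750, adjusted p = 2.65e-06). Exons of PRIM1 overlap those of NACA on the same strand and of HSD17B6 on the other, so the value may hold reads of these neighbours.

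PRIM2, the regulatory primase subunit, rose without the larger deficient effect. It stood at 48.5, 45.2 and 45.7 CPM under PBS and 73.2, 69.2 and 70.0 CPM under AA in deficient cells, and at 47.6, 41.4 and 42.3 CPM and 75.9, 78.2 and 77.6 CPM in intact cells. All AA libraries lay above all PBS libraries. The rise was 1.52-fold in deficient (log2 SE 0.0521, adjusted p = 6.89e-10) and 1.77-fold in intact cells (log2 SE 0.0519, adjusted p = 8.39e-12), where it was the largest rise of the 41. The difference of -0.21 (adjusted p = 0.0225) was not called without intact PBS replicate 2 (-0.18) or 3 (-0.19), deficient PBS replicate 1 (-0.18) or deficient AA replicate 2 (-0.20), nor with library size scaling (-0.16) or on FPKM (-0.14). POLA1, the catalytic subunit of polymerase alpha, stood at 154, 159 and 163 CPM under PBS and 203, 212 and 198 CPM under AA in intact cells, and at 157, 164 and 163 CPM and 198, 196 and 196 CPM in deficient cells. It rose by 0.36 and 0.28 (SE 0.0347 and 0.0348), and by 0.62 in both with the length trend removed. POLA2, its partner subunit, rose by 0.31 and 0.25, but its deficient rise did not pass on FPKM (0.19). The difference between genotypes did not pass for POLA1 (95% interval -0.18 to 0.02) or POLA2 (-0.22 to 0.10).

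POLE, the catalytic subunit of polymerase epsilon, stood at 186, 173 and 168 CPM under PBS and 78.7, 77.7 and 79.4 CPM under AA in deficient cells, and at 176, 179 and 168 CPM and 112, 107 and 104 CPM in intact cells. Under PBS the genotypes overlapped, and under AA the deficient libraries were the lower ones. The fall was 2.24-fold in deficient cells (log2 -1.16, SE 0.0425, adjusted p = 4.01e-16), the largest of the 41, and 1.62-fold in intact cells (log2 -0.70, SE 0.0413, adjusted p = 2.73e-12). The effects differed by -0.47 (SE 0.0592, adjusted p = 1.47e-06). With the length trend removed the falls were smaller, at -0.70 and -0.34, and still passed. POLE2, the second subunit, did not pass in either genotype (-0.03 and 0.12), but passed in deficient cells with the length trend removed (-0.26) and in intact cells with upper quartile scaling (0.18). POLD1, the catalytic subunit of polymerase delta, which copies the lagging strand, moved in opposite directions. It stood at 77.0, 73.1 and 80.7 CPM under PBS and 92.8, 96.1 and 92.3 CPM under AA in intact cells, and at 84.1, 75.8 and 68.7 CPM and 66.0, 67.2 and 67.5 CPM in deficient cells. The intact AA libraries lay above the other 9. POLD1 rose by 0.29 in intact cells (SE 0.0544, adjusted p = 8.26e-05) and fell by 0.19 in deficient cells (SE 0.0563, adjusted p = 0.00499), and the difference was -0.47 (SE 0.0782, adjusted p = 3.87e-05). The deficient fall was not called without PBS replicate 1 (-0.11), on FPKM (-0.12) or with the length trend removed (-0.02).

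PCNA, the ring that holds polymerases on DNA, rose in intact cells, and had a small change in deficient cells that passed only narrowly. It stood at 197, 201 and 204 CPM under PBS and 245, 246 and 248 CPM under AA in intact cells, and at 209, 209 and 209.5 CPM and 204, 199.5 and 197 CPM in deficient cells. The intact AA libraries lay above all others. The rise in intact cells was 0.30 on the log2 scale (SE 0.0290, adjusted p = 9.66e-09), and 0.07 with the length trend removed, which still passed. In deficient cells the change was -0.07 (adjusted p = 0.0479), a call that was kept without 1 of the 6 deficient libraries and lost without each of the other 5 (-0.07 to -0.06). It was lost in 10 of 11 alternatives (-0.07 to -0.01), and in the remaining one, with the length trend removed, the fall was -0.40. The difference was -0.36 (SE 0.0413, adjusted p = 3.27e-07) and passed under every alternative.

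Of the 4 small subunits of the clamp loader RFC, which opens PCNA and sets it on DNA, RFC2, RFC4 and RFC5 rose in both genotypes. RFC2 stood at 83.7, 92.2 and 84.3 CPM under PBS and 154, 148 and 149 CPM under AA in deficient cells, and at 80.5, 79.4 and 77.7 CPM and 98.1, 99.9 and 109 CPM in intact cells. RFC4 stood at 53.0, 46.6 and 49.4 CPM and 86.5, 85.6 and 89.0 CPM in deficient cells, and at 49.0, 48.2 and 49.8 CPM and 72.2, 70.8 and 69.5 CPM in intact cells. For both genes the deficient AA libraries were highest and the intact AA libraries second, with no overlap. RFC2 rose 1.73-fold in deficient (log2 SE 0.0441, adjusted p = 4.94e-13) and 1.29-fold in intact cells (log2 SE 0.0456, adjusted p = 3.17e-07). RFC4 rose 1.75-fold (log2 SE 0.0470, adjusted p = 9.98e-13) and 1.45-fold (log2 SE 0.0477, adjusted p = 2.36e-09). The effects differed by 0.42 for RFC2 and 0.28 for RFC4 (adjusted p = 1.17e-05 and 0.00180). With the length trend removed the log2 rises of RFC4 were 0.46 and 0.29, and that of RFC2 in intact cells 0.20. RFC4 shares exon sequence with EIF4A2 on the opposite strand. RFC5 rose by 0.27 and 0.19, while RFC3 fell in deficient cells (-0.11, adjusted p = 0.0401), a call kept without 1 of the 6 deficient libraries and lost without each of the other 5 (-0.11 to -0.08) and in 9 of 11 alternatives (-0.10 to -0.03), and stood at 0.03 in intact cells. The difference of RFC5 passed on FPKM (0.22) and that of RFC3 with the length trend removed (-0.16), which also brought the deficient rise of RFC5 to 0.16 and the difference of RFC4 to 0.17.

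The enzymes that finish lagging strand fragments were lower in deficient cells under AA. FEN1, the flap endonuclease, fell by 0.54 in deficient (SE 0.0322, adjusted p = 1.58e-12) and by 0.19 in intact cells (SE 0.0317, adjusted p = 2.03e-05), with a difference of -0.35 (adjusted p = 1.58e-06). LIG1, the ligase that seals the fragments, fell by 0.27 in deficient cells (adjusted p = 4.13e-05), though not past the threshold on FPKM (-0.12 and -0.13), and rose by 0.11 in intact cells (adjusted p = 0.0451). The LIG1 rise was called without 1 of the 6 intact libraries and not without each of the other 5 (0.09 to 0.12), nor in DESeq2 (0.11), without the filter (0.10) or with the replicate block (0.11), and its value on FPKM was -0.01. LIG1 read -0.16 and 0.19 with the length trend removed and passed in both. The difference in LIG1, -0.37, was -0.12 on FPKM and did not pass there. FEN1 has a named pseudogene and shares exon sequence with TMEM258 and FADS2, which makes its level uncertain.

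Of the 4 genes that supply deoxynucleotides, RRM1, TYMS and TK1 rose in both genotypes and RRM2 fell in both. Among all genes tested, 24.6% rose in both and 27% fell in both. RRM1 and RRM2 encode the large and small subunits of ribonucleotide reductase, which makes deoxynucleotides from ribonucleotides. RRM1 rose by 0.17 and 0.26 in deficient and intact cells (SE 0.0255 and 0.0255), and RRM2 fell by 0.26 and 0.21 (SE 0.0332 and 0.0333). TK1, which salvages thymidine, rose by 0.36 and 0.36, with a difference of -0.01 (95% interval -0.12 to 0.11). TYMS, which makes thymidylate, stood at 248, 235 and 239 CPM under PBS and 289.7, 283 and 281 CPM under AA in deficient cells, and at 239, 239 and 248 CPM and 263, 266 and 266 CPM in intact cells. All AA libraries lay above all PBS libraries. TYMS rose by 0.24 and 0.13 (SE 0.0301 and 0.0301). With the length trend removed, the deficient rises of TYMS (0.01) and TK1 (0.05) did not pass, and TYMS stood at -0.02 in intact cells. That fit gave 0.16 for TK1 in intact cells, 0.30 for RRM1 in deficient cells, and -0.12 and -0.11 for RRM2, which passed. The differences of TYMS (0.11, adjusted p = 0.0404) and RRM1 (-0.09, adjusted p = 0.0441) were lost in most fits with 1 library left out, 9 and 8 of the 12, with values of 0.09 to 0.12 and -0.10 to -0.07 there. They were also lost with the length trend removed (0.03 and -0.06) and the replicate block (0.11 and -0.09), that of TYMS with upper quartile scaling (0.09), and that of RRM1 with library size scaling (-0.04), without the filter (-0.08) and on FPKM (-0.03). RRM2 and TYMS have named pseudogenes, and TYMS shares exon sequence with ENOSF1 on the opposite strand.

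None of the 6 genes of G1/S control, the fork checkpoint and histone mRNA binding rose, and 5 of them fell in both genotypes. Among all genes tested, 27% fell in both. CCNE1 and CCNE2 encode the E cyclins, which activate CDK2 at the start of S phase. CCNE1 stood at 33.1, 32.9 and 29.4 CPM under PBS and 15.2, 15.2 and 15.7 CPM under AA in deficient cells, and at 30.6, 29.4 and 25.9 CPM and 16.8, 17.5 and 18.7 CPM in intact cells. CCNE2 stood at 39.2, 42.0 and 45.5 CPM and 22.0, 19.7 and 23.3 CPM in deficient cells, and at 39.6, 37.0 and 38.2 CPM and 30.5, 26.7 and 26.0 CPM in intact cells. For both cyclins every AA library lay below every PBS library. CCNE1 fell 2.07-fold in deficient (log2 -1.05, SE 0.0768, adjusted p = 4.87e-11) and 1.62-fold in intact cells (log2 -0.69, SE 0.0762, adjusted p = 5.47e-08). CCNE2 fell 1.95-fold (log2 -0.96, SE 0.0757, adjusted p = 1.72e-10) and 1.38-fold (log2 -0.47, SE 0.0742, adjusted p = 1.01e-05). The effects differed by -0.36 for CCNE1 (adjusted p = 0.0102), which did not pass on FPKM with a pseudocount of 1 (-0.25), and by -0.50 for CCNE2 (adjusted p = 0.000624).

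CLSPN encodes claspin, which carries the signal of stalled forks to the kinase CHK1. It stood at 132, 138 and 146 CPM under PBS and 78.4, 77.8 and 68.9 CPM under AA in deficient cells, and at 132, 140.4 and 134 CPM and 80.6, 89.3 and 79.8 CPM in intact cells. The AA libraries of both genotypes lay below all PBS libraries and close to each other. CLSPN fell 1.84-fold and 1.63-fold (log2 SE 0.0523 and 0.0518, adjusted p = 1.45e-12 and 9.30e-11), and with the length trend removed by 0.53 and 0.44 on the log2 scale. The difference of -0.17 did not pass (95% interval -0.33 to -0.02, adjusted p = 0.0592). It passed in 5 of the 12 fits with 1 library left out, at -0.21 to -0.20, with upper quartile scaling (-0.20) and without the filter (-0.17). SLBP, which binds the stem-loop of histone mRNA and is itself made in S phase, fell by 0.48 in deficient and 0.18 in intact cells, with a difference of -0.30 (SE 0.0729, adjusted p = 0.00198). Its intact fall did not pass with upper quartile scaling (-0.12) and was -0.31 with the length trend removed. E2F1, the activating E2F, fell by 0.30 (adjusted p = 2.25e-05) and 0.16 (adjusted p = 0.00970). The intact fall of E2F1 was not called without PBS replicate 2 (-0.13) or AA replicate 2 (-0.12), with upper quartile scaling (-0.10) or with the length trend removed (-0.11). E2F2, a second activating E2F, did not pass in either genotype (-0.09 and -0.11), and with the length trend removed read 0.24 in deficient cells and passed.

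**Figure D3:**
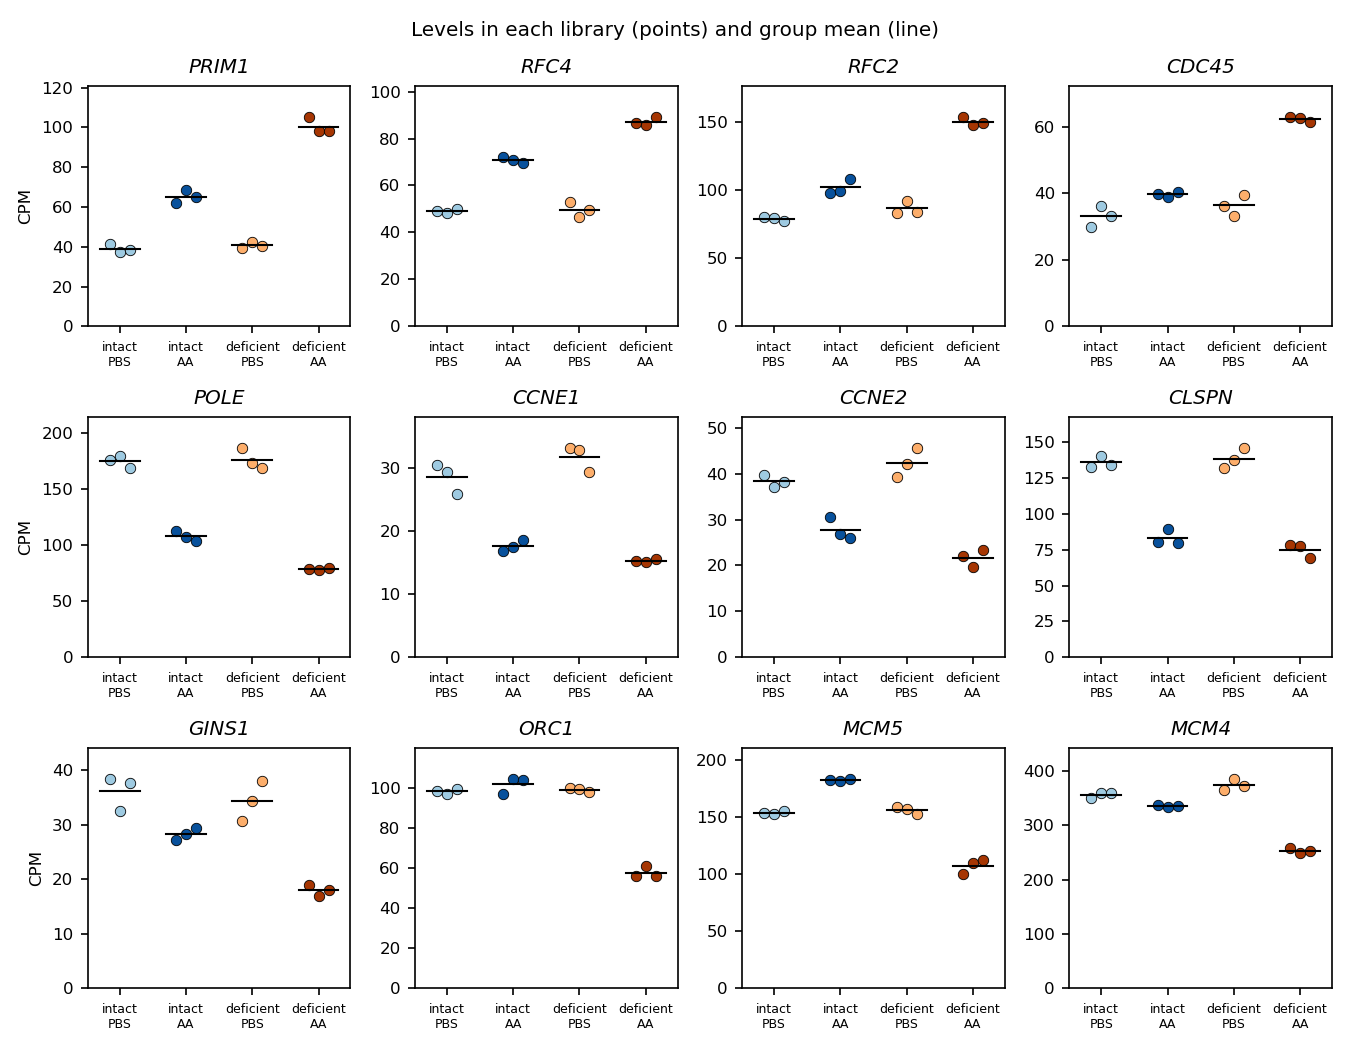
CPM of 12 genes (vertical axes, each from 0) in the 3 libraries of each group (points) with the group mean (line), by group (horizontal axes). The top row holds genes that rose in both genotypes, the middle row genes that fell in both, and in the bottom row the deficient AA libraries lie below all other libraries, ORC1 at 56.0, 60.9 and 56.0 CPM among them.

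Levels can be compared between genes only per length, and the deposited FPKM values, which divide by transcript length and depth, were used for that. Under PBS the mean FPKM of the 41 genes ran from 5.31 for E2F2 to 225.2 for MCM7 in intact cells, with a median of 31.1. Under AA the highest was RRM1, at 248.8 FPKM in intact and 245.0 FPKM in deficient cells, and E2F2 stayed lowest, at 4.92 and 5.85 FPKM. At the low end under PBS in intact cells, GINS4 (11.5 ± 0.454 FPKM), GINS1 (12.6 ± 0.698 FPKM), POLE2 (13.2 ± 0.594 FPKM) and MCM10 (13.6 ± 0.0737 FPKM) followed (SD, n = 3 each). Within 1 SD, GINS1 overlapped GINS4 and POLE2, and POLE2 overlapped MCM10, but GINS1 and MCM10 did not overlap. At the high end MCM7 (225.2 ± 2.74 FPKM) and RRM1 (208.0 ± 3.77 FPKM) stood apart by more than their spread, with MCM4 next (195.1 ± 7.78 FPKM). The TMM-scaled CPM of the 41 genes summed to 5910 ± 55.1 in intact PBS, 6274 ± 7.59 in intact AA, 6018 ± 54.7 in deficient PBS and 5727 ± 34.9 in deficient AA libraries (SD, n = 3 each), so the sums under AA went up in intact and down in deficient cells. As a share of all counts, with no TMM scaling, the 41 genes held 0.620 to 0.622% in intact AA against 0.579 to 0.590% in intact PBS libraries, while the deficient AA libraries (0.587 to 0.592%) overlapped those under PBS (0.589 to 0.601%). The median FPKM of the 41 genes was instead higher under AA in both genotypes. It was 31.12 under PBS and 37.61 under AA in intact cells, and 31.41 and 35.85 in deficient cells. The direction in deficient cells thus depended on the measure.

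Subunits that act in equal number were least even in deficient cells under AA. For GINS and RFC, though not for the MCM ring, they also became less even in intact cells under AA. Among MCM2 to MCM7 the highest FPKM was 3.81 to 4.24 times the lowest in the 9 libraries of the other groups, where MCM6 or MCM5 was lowest. In the deficient AA libraries it was 5.88, 5.25 and 5.50 times, with MCM5 lowest in each. For GINS1 to GINS4 the ratio was 1.75 to 1.86 in intact PBS, 2.07 to 2.25 in deficient PBS, 2.30 to 2.84 in intact AA and 3.32 to 4.43 in deficient AA libraries, with GINS2 highest throughout and GINS1 lowest under AA. For RFC2 to RFC5 it was 1.287 to 1.579 in intact PBS, 1.497 to 1.656 in deficient PBS and 1.642 to 1.847 in intact AA libraries. In the deficient AA libraries it was 2.94, 2.82 and 2.61, with RFC2 highest and RFC3 lowest in all 12. No test was made of these ratios.

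Tested as 1 quantity, the difference in AA effect between genotypes passed for 25 of the 41 genes, where 44.6% of all genes passed (21.6% higher and 23% lower in deficient cells, and 23.4% and 15.4% on FPKM with a pseudocount of 1). It was lower in deficient cells for 19 genes and higher for 6, with a median of -0.14, against -0.01 over all genes tested. Of the 25, 18 passed under each alternative and with each library left out, 14 lower and 4 higher. Spearman's rho of the difference with transcript length was -0.356 over the 41 genes and -0.153 over all genes tested. The part of length was not tested further than by the fit with the length trend removed, which ended 2 of the 25 calls. By role, lower effects were called for 7 of 11 licensing genes, 2 of 6 firing genes, 3 of 7 primase and polymerase genes, 3 of 7 clamp and maturation genes, 1 of 4 deoxynucleotide genes and 3 of 6 genes of the last group. Higher effects were those of CDC45, PRIM1, RFC2, RFC4, CDC6 and TYMS.

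Under PBS the 2 genotypes gave no called difference among the 41 genes, where 0.275% of all genes were called (0.055% higher and 0.22% lower). At an unadjusted p under 0.05 the count was 8, and DESeq2 called none. The log2 differences, deficient minus intact, ran from -0.07 for GINS1 to 0.19 for GINS2, with 34 above and 7 below 0 and a median of 0.04. The libraries of the genotypes did not overlap for 8 genes (19.5%, against 13.4% of all genes), all higher in deficient cells: MCM4, MCM6, GINS2, POLE2, PCNA, RFC2, RRM2 and E2F2. Under AA 32 of the 41 differed, 10 higher and 22 lower in deficient cells, where 59% of all genes were called (28.7% higher and 30.3% lower, and 32.5% and 21.3% on FPKM with a pseudocount of 1), with a median of -0.12. The libraries of the genotypes did not overlap for 33 genes (63.2% of all genes). CDC45 (0.65, SE 0.0628, adjusted p = 1.11e-08), PRIM1 (0.63, SE 0.0482) and RFC2 (0.56, SE 0.0429) were the highest, and ORC1 (-0.82, SE 0.0427, adjusted p = 4.72e-13), MCM5 (-0.76, SE 0.0376) and GINS1 (-0.66, SE 0.0835) the lowest. This comparison shares the deficient and intact AA libraries with the ones above, so it is not separate evidence. All 6 MCM genes were lower in deficient cells here, by 0.16 to 0.76, under every alternative and with each of the 6 AA libraries left out. Of the 32 calls, 8 were lost when 1 library was left out, those of CCNE1, CDT1, CLSPN, E2F2, MCM10, PRIM2, RFC3 and RFC5. The length trend removed ended 5, those of CLSPN (-0.05), MCM10 (-0.07), RFC5 (0.08), RRM1 (-0.05) and TYMS (0.02). Spearman's rho of the genotype difference with length was -0.405 under AA over the 41 genes and -0.179 over all genes. Under PBS it was -0.35 and -0.078.

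**Figure D4:**
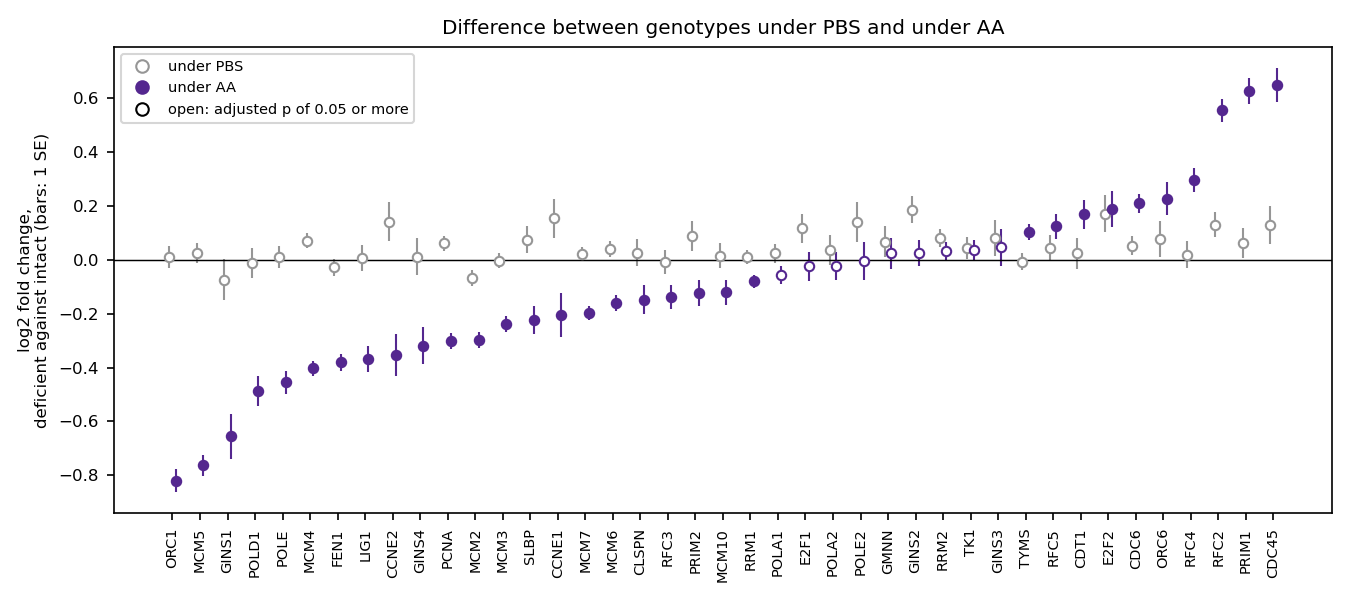
Log2 fold change of LKB1-deficient against LKB1-intact cells (vertical axis, points, with bars of 1 standard error) for the 41 genes (horizontal axis, ordered by the value under AA), under PBS (grey) and under AA (purple), filled where the adjusted p was under 0.05. The PBS values all lie between -0.07 and 0.19 and none is filled, while the AA values run from -0.82 to 0.65.

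Lists of related factors held 100 other genes of the same processes that were tested. Their values, and those of the G2 and mitosis genes further below, come from the main fit alone. The part of transcript length in them was not tested. In deficient cells 43 of them rose and 36 fell (median 0.07), close to the 37% and 37.4% of all genes. In intact cells 43 rose and 27 fell (median 0.07), against 34.5% and 35.2% of all genes. The difference was higher in deficient cells for 25 and lower for 29, against 21.6% and 23%. Among 15 further origin factors, 8 rose and 6 fell in deficient cells. TICRR, which with TOPBP1 brings CDC45 to the origin, fell by 1.65 and 1.01 in deficient and intact cells (SE 0.0464 and 0.0440), and ORC5 rose by 1.29 and 0.76. MCM9, a relative of the MCM ring that acts in repair, fell by 1.39 and 0.81. Among 22 replisome and maturation factors, 10 rose and 7 fell in deficient cells, and POLD4, the smallest subunit of polymerase delta, rose by 1.37 and 1.17. RNASEH2A, which removes ribonucleotides from DNA, rose by 0.70 in deficient cells.

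Of 17 genes of G1 cyclins, their kinases and inhibitors, 8 rose and 6 fell in deficient cells and 6 rose and 8 fell in intact cells. For this and the next lists, 37% of all genes tested rose and 37.4% fell in deficient cells. In intact cells 34.5% of all genes rose and 35.2% fell. CDKN1A, which encodes p21, an inhibitor of cyclin E and CDK2 and a binding partner of PCNA, rose from 26.6 ± 1.96 to 117 ± 4.42 CPM in deficient and from 24.8 ± 0.751 to 110.0 ± 4.62 CPM in intact cells (SD, n = 3 each). Its log2 rises of 2.13 and 2.15 (SE 0.0544 and 0.0548) differed by -0.01, which did not pass (95% interval -0.18 to 0.15). SKP2, part of the ubiquitin ligase that removes CDK inhibitors and CDT1, went from 230.2 ± 6.61 to 84.5 ± 4.21 CPM in deficient and from 218 ± 9.33 to 155 ± 6.01 CPM in intact cells, with a difference in effect of -0.96 (SE 0.0589, adjusted p = 2.60e-11). CDK6, a G1 kinase, fell by 0.93 and 1.44. Of 15 other E2F, DP and pocket protein genes, 4 rose and 6 fell in deficient cells. RB1, which encodes the retinoblastoma protein, rose by 0.64 and 0.47, and TFDP1, the partner of the activating E2Fs, fell by 0.53 in deficient cells.

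The 10 further genes of nucleotide supply had 6 up and 2 down in deficient and 7 up and none down in intact cells. The shares of all genes were 37% up and 37.4% down in deficient, and 34.5% and 35.2% in intact cells. SAMHD1, which breaks down deoxynucleotides, fell by 0.57 in deficient and rose by 0.35 in intact cells, and the difference of -0.91 (SE 0.106, adjusted p = 4.15e-07) was the widest in that list. Of 8 genes that restore chromatin behind the fork, 2 rose and 4 fell in deficient cells. CHAF1A, a subunit of the histone chaperone CAF-1, fell by 0.48 and 0.36, and UHRF1, which recruits the maintenance methyltransferase, by 0.48 and 0.32. Of 13 S phase checkpoint genes, 5 rose and 5 fell in deficient cells. Of 30 genes of G2 and mitosis, which are transcribed after S phase, 19 rose and 4 fell in deficient cells (63.3% and 13.3%, against 37% and 37.4% of all genes, median 0.24). In intact cells 17 rose and 6 fell (56.7% and 20%, against 34.5% and 35.2%, median 0.18). The difference in AA effect was higher in deficient cells for 14 of the 30 and lower for 5 (46.7% and 16.7%, against 21.6% and 23% of all genes). These counts were not tested against those of the replication genes. HMMR, a spindle protein, rose by 1.24 and 0.84. MKI67 had the largest fall of the 30 genes in both genotypes (-0.84 in deficient and -0.62 in intact cells). KIF20A, a kinesin of cytokinesis, fell by 0.39 in deficient and rose by 0.65 in intact cells.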

How the data were processed

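RNA sequencing of 12 libraries, 3 in each of 4 groups assigned from the sample titles and genotype labels, gave 2 tables. The authors deposited estimated counts per gene, of which 10.9 to 11.5% of the values in a library are not whole, and the deposited FPKM divide by length and depth. The submitters' processing notes name StringTie 1.3.1, HISAT2 2.1.0, RSEM, Bowtie2 2.2.8 and fastp 0.18.0. Their roles, the genome build, the annotation and the use of strand were not given in the sources used here. No column was left unmapped.

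Counts were rounded, and genes kept by edgeR's filterByExpr at a minimum count of 10 (12718 of 20323 identifiers, 99.97% of counts). TMM factors were 0.987 to 1.033. One quasi-likelihood model (edgeR 4.0.16, R 4.3.3) with group as factor gave 5 comparisons: the AA effect in deficient and in intact cells, how these 2 effects differ, and deficient against intact cells with PBS or with AA. P-values were adjusted by Benjamini-Hochberg over all genes tested. CPM were computed from the TMM-scaled library sizes. Alternatives were RLE, upper quartile and library size scaling, DESeq2 1.42.0, no filter, a minimum count of 30, limma 3.58.1 on log2(FPKM + 1) and log2(FPKM + 0.1) for genes with at least 1 FPKM in 3 libraries, a per-library length trend (lowess span 0.3) removed, only the compared groups, a replicate block, an adjusted p of 0.01, and each library left out. Library pairs of a group had chi-square per degree of freedom of 1.997 to 4.348, so none were counted as 1 sample. The model was run on simulated data with known changes in few genes, unlike these libraries, so that run does not test the scaling. Of 50 genes changed by 0.25 on the log2 scale it called 44% for the AA effect in deficient cells and 26% for the difference. At a change of 1 it called 92% and 88%. False calls were 8 of 163 and 7 of 146.

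The 41 genes and the lists of related genes were chosen with earlier results of these data known, and draw on lists of a previous analysis. STK11 is given by group mean. Values by library are given, in each AA comparison, for the 6 called genes with the largest rise and fall, for the difference the 6 largest of each sign, and between genotypes the 3 largest of each sign. Up to 2 genes of each sign per AA comparison are named from each related list. The libraries of MCM2, MCM7 and PCNA, the group means of CDKN2A and the promoters of MCM3 and MCM6 were added after their values were seen. All 41 identifiers matched GENCODE 29 (GRCh38), where 14 overlap exons of a gene on the opposite strand and 6 have a named pseudogene. Beyond the genes marked in the results, such an overlap holds for GINS2, GINS3, GINS4, RFC5, LIG1, RRM1, CCNE2 and CLSPN. PCNA, RFC3 and RFC5 also have a named pseudogene, and POLA2, POLD1 and RRM2 overlap exons of a gene on the same strand. The levels of all these genes may hold reads of such neighbours or copies.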

Additional observations from a re-analysis of the deposited data

Results flagged for a closer look

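For 25 of the 41 genes the effect of AA differed between LKB1-deficient and LKB1-intact cells by the test of the difference itself (edgeR, adjusted over all genes tested, of which 44.6% passed). The values below are log2 effects in deficient minus intact cells. Among licensing genes they were -0.83 for ORC1, -0.79 for MCM5, -0.48 for MCM4, -0.24 for MCM3, -0.23 for MCM2, -0.22 for MCM7, -0.20 for MCM6 and 0.16 for CDC6. Among the firing factors they were -0.58 for GINS1, -0.33 for GINS4 and 0.52 for CDC45. Primase and the polymerases gave 0.56 for PRIM1, -0.21 for PRIM2, -0.47 for POLD1 and -0.47 for POLE. The clamp, its loader and the maturation enzymes gave -0.36 for PCNA, 0.42 for RFC2, 0.28 for RFC4, -0.35 for FEN1 and -0.37 for LIG1. The deoxynucleotide genes gave -0.09 for RRM1 and 0.11 for TYMS. The rest were -0.36 for CCNE1, -0.50 for CCNE2 and -0.30 for SLBP.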

How the results depend on the processing

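The counts of genes called up and down in each comparison stayed within 1.5 times under every alternative run, and medians moved more. The median log2 change in deficient cells (-0.103) was -0.062 with upper quartile scaling, -0.045 with library size scaling, -0.027 and -0.029 on FPKM with pseudocounts of 1 and 0.1, and -0.045 with the length trend removed. The median in intact cells (0.109) was 0.171 with upper quartile scaling and 0.146 with the length trend removed. That of the difference (-0.143) was -0.089 with library size scaling and -0.107 on FPKM with a pseudocount of 1. That between genotypes under AA (-0.121) was -0.065, -0.053, -0.056 and -0.084 with library size scaling, on FPKM with pseudocounts of 1 and 0.1, and with the length trend removed. Library size scaling, FPKM and upper quartile scaling moved the median of all genes by at most 0.07. With 1 library left out the medians ran from -0.114 to -0.083 in deficient cells, from 0.099 to 0.120 in intact cells, from -0.172 to -0.132 for the difference, from 0.033 to 0.046 between genotypes under PBS, and from -0.124 to -0.090 between genotypes under AA. Counts up and down then ran over 13 and 18 to 21, 20 to 22 and 11 to 12, 5 to 6 and 18 to 20, 0 and 0, and 8 to 10 and 18 to 21.

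Values of single genes that passed in either fit changed sign in 10 cases, and another 105 sign changes were of values that passed in neither. On FPKM with pseudocounts of 1 and 0.1, MCM3 in deficient cells read 0.0592 and 0.0596, and LIG1 in intact cells -0.00558 and -0.00572. With the length trend removed MCM2 read 0.0256, MCM6 0.13, MCM10 0.0669 and E2F2 0.24 in deficient cells, and GMNN -0.24 and TYMS -0.0196 in intact cells. The cause was not tested beyond what these settings change. Calls held under every alternative and library left out for 25 of 36 genes in deficient cells, 27 of 34 in intact cells, 18 of 25 for the difference and 22 of 32 between genotypes under AA. Libraries with the same replicate number correlated at -0.094 to 0.054 in their deviations from the group means, so the numbers do not pair the libraries. With a replicate block 13 genes rose and 21 fell in deficient cells (median -0.103), 21 and 12 in intact cells (0.108), 5 and 18 for the difference (-0.144), 0 and 0 between genotypes under PBS (0.041), and 10 and 22 under AA (-0.121). A fit of only the compared groups gives no difference in effect. Counts of 16055534 to 20306129 per library and 3 libraries a group limit what small changes can show.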
